A study of Homo sapiens with 3 samples.

Results

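Kallikreins KLK6, KLK10, KLK11 and KLK12 are 4 members of the tissue kallikrein family of 15 genes (KLK1 to KLK15), and they are described here across single cells of a co-culture of the human colorectal carcinoma lines Caco-2 and HT29. The 4 genes were selected by symbol among the 33538 genes of the count tables because they stood out in an earlier look at the same libraries, so their levels by line and cluster and their joint detection are a description and carry no test. The effect of lipopolysaccharide (LPS), which the choice did not use, was tested. Caco-2 cells of passage 8 and HT29 cells of passage 13 were seeded together at a ratio of 9 to 1 in the apical chamber of Transwell inserts and harvested on day 23. 2 inserts served as untreated controls, and 1 insert received 1 ng/ml LPS of Escherichia coli O111:B4 apically from day 22 for 24 h. The cells were frozen before the assay, and samples of low viability went through removal of dead cells. Both are tumour lines grown here without stromal or immune cells, so a level describes these lines and not normal mucosa.

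Tissue kallikreins are secreted serine proteases that are made as inactive zymogens and cleaved outside the cell by other proteases, often by other kallikreins. Once active, they cut matrix and adhesion proteins, growth factor binding proteins and protease-activated receptors, and they are held in check by serpins and by Kazal-type and Kunitz-type inhibitors. Their genes form one uninterrupted cluster on chromosome 19. KLK1, true tissue kallikrein, releases kinins from kininogen, whereas KLK6, KLK11 and KLK12 are trypsin-like and KLK10 is known as a gene often silenced in breast carcinoma.

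After the filters on cells, 4633 cells of control 1, 4989 of control 2 and 4850 of the LPS library were kept, with medians of 5452, 4101 and 3572.5 unique molecular identifiers (UMIs, each standing for one captured RNA molecule) per cell. The 3 libraries therefore differed in depth, control 1 being the deepest. Each cell was given a line from the study's lists of genes that separate HT29 from Caco-2 monocultures, without any kallikrein, which put 658, 1017 and 869 cells in the HT29 line and 3975, 3972 and 3981 in the Caco-2 line. That is 14.2%, 20.4% and 17.9% of the cells as HT29. Scores of 28, 84 and 70 cells lay near the cut between the lines. Any pair of libraries shared 4 to 6 barcodes among the kept cells. Levels are given as UMIs per 1000000 UMIs of the summed cells (CPM). Intervals are 95% Poisson intervals for levels and exact binomial intervals for shares of cells, and both cover counting error only. The assay counts each molecule at its 3′ end, so levels were not divided by gene length.

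In GENCODE v44 (GRCh38), KLK6 (ENSG00000167755) lies at chr19:50958631-50969673, KLK10 (ENSG00000129451) at chr19:51012739-51020175, KLK11 (ENSG00000167757) at chr19:51022216-51028039 and KLK12 (ENSG00000186474) at chr19:51029092-51035230, all on the minus strand. KLK10, KLK11 and KLK12 are direct neighbours, with gaps of 2.04 kb and 1.05 kb. KLK6 is separated from KLK10 by 43.1 kb that hold KLK7, KLK8 and KLK9. Antisense lncRNAs with exons on those of KLK6, KLK10 and KLK12 held 1 to 3 UMIs each in all kept cells, against 1628, 1142 and 720 UMIs of the kallikreins themselves. KLK11 held 3915 UMIs.

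The promoter windows below run from 250 bases before to 50 bases after a start site in RefSeq (GRCh38.p14), and are shown because the genes, although neighbours, differed in where they were detected. Capitals mark GGGCGG, the core of the GC box bound by Sp1-type factors, and CAGGTG, an E-box, on either strand. RefSeq lists 6 windows for the 4 genes, of which the 4 shown are 1 per gene.
KLK6, chr19:50969542-50969841, minus strand: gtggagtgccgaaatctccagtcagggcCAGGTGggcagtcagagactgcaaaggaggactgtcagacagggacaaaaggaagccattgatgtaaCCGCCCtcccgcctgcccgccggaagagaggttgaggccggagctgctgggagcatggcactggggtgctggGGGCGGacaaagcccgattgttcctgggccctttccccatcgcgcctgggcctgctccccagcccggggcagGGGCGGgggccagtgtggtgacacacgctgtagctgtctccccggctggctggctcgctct
KLK10, chr19:51019660-51019959, minus strand: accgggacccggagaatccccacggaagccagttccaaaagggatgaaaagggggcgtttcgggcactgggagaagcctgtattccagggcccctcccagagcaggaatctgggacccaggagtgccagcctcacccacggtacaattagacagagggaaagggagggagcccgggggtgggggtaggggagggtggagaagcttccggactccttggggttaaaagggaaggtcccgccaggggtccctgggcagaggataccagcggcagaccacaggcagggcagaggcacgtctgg
KLK11, chr19:51026567-51026866, minus strand: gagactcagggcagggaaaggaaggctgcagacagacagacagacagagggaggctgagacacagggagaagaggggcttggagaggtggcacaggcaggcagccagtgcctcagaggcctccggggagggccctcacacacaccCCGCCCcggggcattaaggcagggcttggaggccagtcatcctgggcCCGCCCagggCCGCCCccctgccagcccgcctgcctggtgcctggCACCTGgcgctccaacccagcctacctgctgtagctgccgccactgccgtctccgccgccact
KLK12, chr19:51034953-51035252, minus strand: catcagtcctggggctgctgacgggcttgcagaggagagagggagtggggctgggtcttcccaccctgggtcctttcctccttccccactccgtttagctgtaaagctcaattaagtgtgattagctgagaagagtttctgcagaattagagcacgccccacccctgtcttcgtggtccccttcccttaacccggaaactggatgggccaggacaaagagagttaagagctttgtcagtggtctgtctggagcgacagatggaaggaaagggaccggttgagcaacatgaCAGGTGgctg
GGGCGG occurred 3 times in the KLK6 window, at -155, -83 and -11 bases from the start site, and 3 times in this KLK11 window, at -105, -58 and -48. It was in neither the KLK10 windows nor the KLK12 window, and it is held by 45.0% of all 35116 RefSeq windows of this length. CAGGTG was in 4 of the 6 windows, KLK6, both of KLK11 and KLK12, against 20.6% of all windows. The TATA box letters TATAAA were in none of the 6 and in 11.5% of all windows. The same held for an AP-1 site, searched as TGANTCA and found in 7.71% of all windows, and for a GATA site, searched as GATAAG and found in 6.36%. The GC content of the windows shown was 66.3% for KLK6, 63.7% for KLK10, 69.3% for KLK11 and 55.3% for KLK12, with a median of 58.7% over all windows. These matches describe letters only and say nothing about which factors act there.

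Across the family, transcripts were found for KLK1, KLK6 and the stretch from KLK10 to KLK12, and hardly at all for the other genes. KLK1, at one end, held 17619 UMIs in the kept cells. KLK2, KLK3, KLK4, KLK5 and KLK15, which lie between KLK1 and KLK6, held 35 UMIs together, and KLK7, KLK8 and KLK9 between KLK6 and KLK10 held 69, of which KLK8 had 54. KLK9, KLK13 and KLK14 had 0 UMIs in 14472 cells, and a count of 0 leaves room for at most 0.0207% of cells with a UMI.

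**Figure D1:**
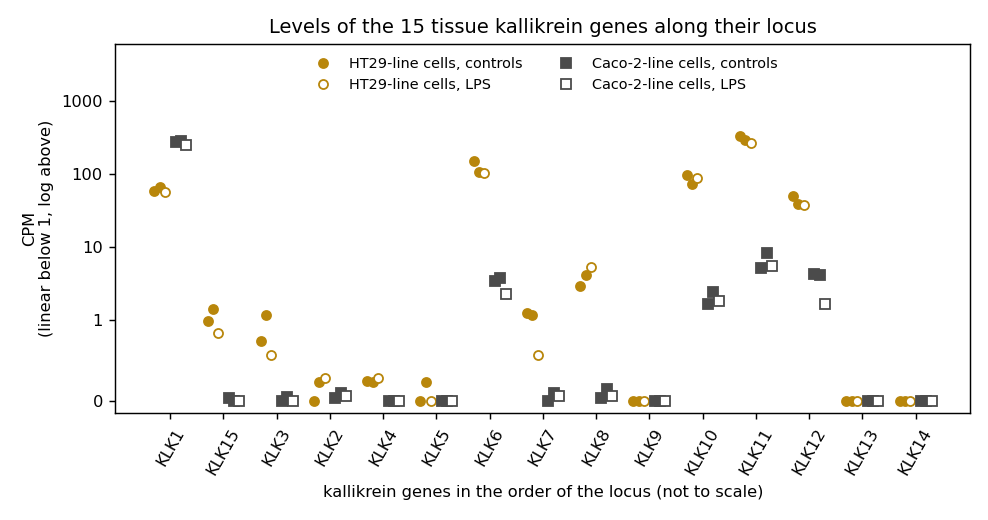
Level of each of the 15 tissue kallikrein genes (CPM, linear below 1 and log above) in the order of the locus, for HT29-line cells (circles) and Caco-2-line cells (squares) of each library, filled for the controls and open for LPS. KLK6, KLK10, KLK11 and KLK12 stood at 37.9 to 330 CPM in HT29-line cells, whereas KLK1 was the highest kallikrein in Caco-2-line cells.

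Summed over the cells of a line, all 4 genes were higher in HT29-line than in Caco-2-line cells in each library. KLK11 was the most abundant of them, with 330 CPM (312 to 348) in the HT29-line cells of control 1, 287 (271 to 303) in control 2 and 266 (249 to 284) in the LPS library. In Caco-2-line cells it was at 5.07, 8.21 and 5.42 CPM. The HT29 level was thus 65.1, 34.9 and 49.1 times the Caco-2 level in the 3 libraries, and the groups of values did not overlap.

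KLK6 had 148 (137 to 160), 106 (96.4 to 116) and 103 (92.6 to 114) CPM in HT29-line cells of control 1, control 2 and LPS, against 3.36, 3.78 and 2.26 CPM in Caco-2-line cells. Its level in control 1 was above that of control 2 by more than the counting intervals, so the spread between the 2 untreated inserts was larger than counting error. KLK10 had 97.4, 73.0 and 86.8 CPM in HT29-line cells against 1.66, 2.39 and 1.79 in Caco-2-line cells.

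KLK12 was the least abundant, at 49.8, 38.0 and 37.9 CPM in HT29-line cells. It also differed least between lines, with 4.18, 4.08 and 1.67 CPM in Caco-2-line cells, or 11.9, 9.31 and 22.8 times as much in HT29. Over the 2 controls the log2 ratio of HT29 over Caco-2 was 5.13 ± 0.46 for KLK6, 5.40 ± 0.66 for KLK10, 5.57 ± 0.64 for KLK11 and 3.40 ± 0.25 for KLK12 (SD, n = 2).

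**Figure D2:**
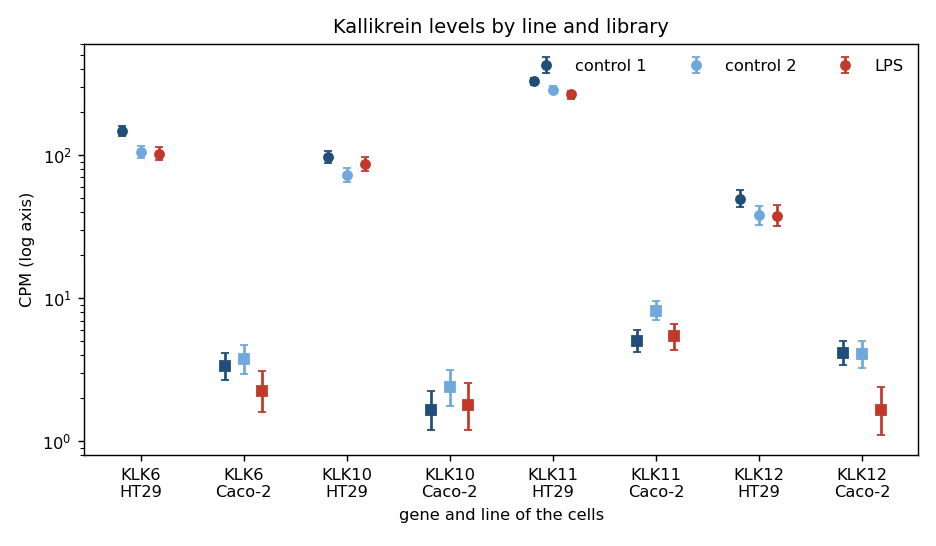
Level of the 4 kallikreins (CPM, log axis) in HT29-line cells (circles) and Caco-2-line cells (squares) of each library, with 95% Poisson intervals. Every HT29-line point lies above every Caco-2-line point of the same gene.

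Of the 6 kallikreins with at least 30 UMIs, KLK6, KLK8, KLK10, KLK11 and KLK12 were more than 4-fold higher in HT29-line cells in each of the 3 libraries and KLK1 was more than 4-fold higher in Caco-2-line cells. Over all 15528 genes with that many UMIs, 5.87% passed the first limit and 4.79% the second. Nothing is read from this count, since the genes were chosen for it. KLK1 ran the other way, with 277, 277 and 248 CPM in Caco-2-line cells against 58.1, 66.9 and 56.5 in HT29-line cells, and it was highest in the enterocyte-like Caco-2 cluster, at 580, 720 and 562 CPM. KLK8, which takes part in the kallikrein cascade of skin, reached 2.94, 4.17 and 5.34 CPM in HT29-line cells and was at 5 UMIs in all Caco-2-line cells together.

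In single cells the genes were sparse. A UMI of KLK11 was seen in 65.0%, 55.7% and 50.1% of HT29-line cells of control 1, control 2 and LPS. For KLK6 it was 42.7%, 29.5% and 25.8%, for KLK10 30.1%, 19.2% and 21.9%, and for KLK12 8.36%, 7.28% and 6.67%. In Caco-2-line cells, with medians of 5468, 4214 and 3573 UMIs, the shares were 1.58%, 2.42% and 1.23% for KLK11, 1.03%, 1.51% and 0.703% for KLK6, 0.503%, 0.906% and 0.477% for KLK10 and 1.58%, 1.36% and 0.528% for KLK12, all below those of HT29-line cells. The shares for KLK6, KLK11 and KLK12 in HT29-line cells followed the depth of the libraries, where these cells had medians of 5369, 3728 and 3550 UMIs. With every cell thinned to 1500 UMIs, which left out no cell, the shares were 33.6%, 29.4% and 28.7% for KLK11, 16.6%, 12.6% and 12.3% for KLK6, 11.1%, 8.16% and 10.5% for KLK10, and 5.78%, 4.52% and 4.72% for KLK12.

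The 4 genes differed in how evenly their molecules were spread. The 10% of HT29-line cells with the most UMIs of a gene held 43.1% of KLK11 UMIs, 56.8% of KLK6 UMIs and 67.9% of KLK10 UMIs over all libraries. KLK12 was seen in fewer than 10% of these cells, so such a share cannot be set beside the others. Of the HT29-line cells with a UMI of the gene, 3 or more UMIs were found in 71 of 187 for KLK12, 486 of 1429 for KLK11, 146 of 805 for KLK6 and 104 of 583 for KLK10. The highest count of KLK12 in a cell was 16. In HT29-line cells KLK11 reached 24 UMIs in a cell, and KLK6 and KLK10 reached 11. A cell of control 1 given the Caco-2 line held 14 UMIs of KLK10, but it fell in an HT29 cluster, that led by TM4SF4 and KRT20 described below. KLK12 was thus detected in the fewest HT29-line cells, while the share of its detecting cells with 3 or more UMIs was not below those of the other 3.

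Clustering without the kallikreins placed these patterns in cell groups. HT29-line cells fell into 4 larger clusters, named here by leading genes, and 2 smaller secretory clusters. A marker was taken as raised at 5 CPM or more with a log2 ratio over all other cells above 0.5. The secretory clusters were a goblet-like cluster of 166 cells with all 5 goblet markers raised (among them MUC2, FCGBP and SPDEF) and an enteroendocrine-like cluster of 61 cells with 4 of 8 enteroendocrine markers raised, led by SST and GCG. Among Caco-2-line cells, 1 enteroendocrine-like cluster of 194 cells had 5 of the 8 markers raised, among them INSM1 and PAX4, and it was led by CLPS. The larger cluster led by LCN15 and PRSS1, of 855 cells, had 3 of the 5 goblet markers raised, namely FCGBP at 70.2 CPM, SPDEF at 57.7 and MUC5AC at 106, against 2245, 230.1 and 685 in goblet-like cells. MUC2 was at 8.93 CPM there, against 431, and was not raised, nor was TFF3. The cluster was kept among the 4 larger ones after these values were seen, and its values are given apart below.

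KLK6 and KLK10 were highest in the larger HT29 clusters. KLK6 was highest in the cluster led by TM4SF4 and KRT20 (a keratin of differentiated intestinal epithelium), at 244, 166 and 157 CPM in control 1, control 2 and LPS, and these values lay above those of every other cluster. The cluster led by LCN15 and PRSS1 followed at 82.2 to 123 CPM over the libraries and the RARRES2 and SPRR1B cluster at 64.1 to 80.3, and the PYGB and AQP1 cluster, at 69.1 to 128, overlapped with both. In goblet-like cells KLK6 was at 23.4, 19.8 and 18.8 CPM, below each of these 4 clusters in each library. In enteroendocrine-like HT29 cells it was at 55.0, 15.2 and 52.8 CPM, on 4, 1 and 3 UMIs.

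KLK10 was highest in the TM4SF4 and PYGB clusters, at 146 to 170 and 104 to 181 CPM, which overlapped. It stood at 79.2, 56.7 and 105 CPM in the RARRES2 and SPRR1B cluster, which overlapped with the PYGB cluster, and at 32.3, 29.0 and 27.4 in the LCN15 and PRSS1 cluster, so that KLK6 and KLK10 differed in the rank of this last cluster. In the 2 HT29 secretory clusters together KLK10 had 8 UMIs, all of them in goblet-like cells, and 0 UMIs in the 61 enteroendocrine-like cells.

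KLK11 was found in all HT29 clusters, secretory ones included. It was at 457, 408 and 390.2 CPM in the TM4SF4 cluster, at 246, 321 and 212 in goblet-like cells, and at 234, 243 and 282 in enteroendocrine-like cells. Its lowest HT29 cluster was that led by LCN15 and PRSS1, at 123, 158 and 114 CPM. The RARRES2 cluster, at 300 to 406 CPM, and the PYGB cluster, at 262 to 339 CPM, overlapped with each other and with goblet-like cells.

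KLK12 was highest in secretory clusters of both lines. In the enteroendocrine-like HT29 cluster it was at 757 (570 to 985), 334 (209 to 505) and 493 (328 to 712) CPM, and in goblet-like HT29 cells at 527 (442 to 623), 380.1 (308 to 464) and 428 (345 to 526) CPM. These 2 clusters did not differ beyond the spread between libraries. The enteroendocrine-like Caco-2 cluster followed at 340.1 (270 to 423) and 244 (188 to 312) CPM in the controls and 92.6 (47.8 to 162) in LPS. In the 4 other HT29 clusters KLK12 was at 0 to 15.5 CPM.

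Over the 3 libraries, 59.3% of KLK12 UMIs came from the HT29 secretory clusters, which held 1.57% of the cells, and 21.5% from the enteroendocrine-like Caco-2 cluster with 1.34% of the cells. The same 2 sources held 1.41% and 0% of KLK6 UMIs, 0.701% and 0% of KLK10 UMIs, and 6.08% and 0.46% of KLK11 UMIs.

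**Figure D3:**
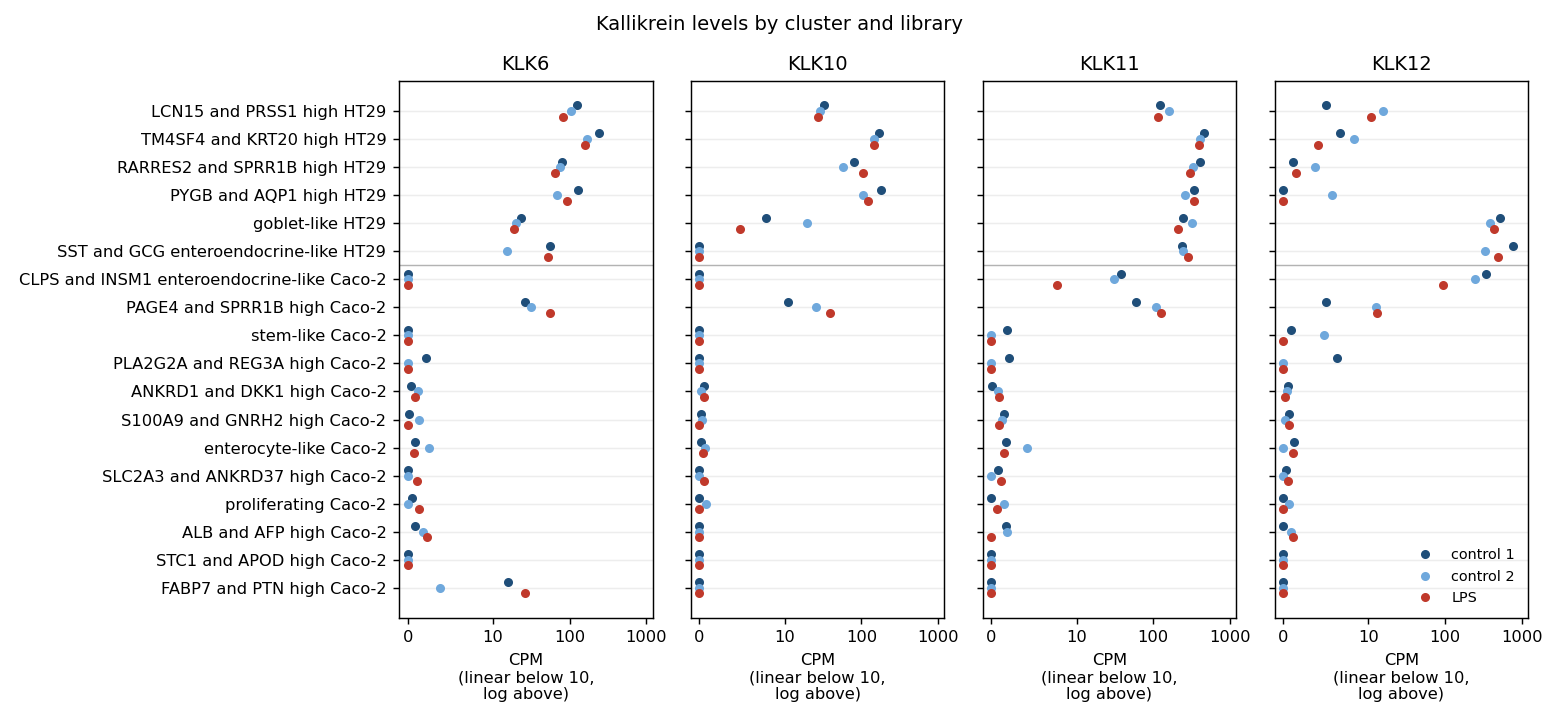
Level of each kallikrein (CPM, linear below 10 and log above) in the 18 clusters, with 1 point per library; clusters above the line are of the HT29 line. KLK6 and KLK10 are high in the upper 4 clusters, KLK11 in all 6 HT29 clusters, and KLK12 in the 2 HT29 secretory clusters and in the enteroendocrine-like Caco-2 cluster.

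The enteroendocrine-like Caco-2 cells held KLK12 with less KLK11 and without KLK10 or KLK6. They had 155 KLK12 UMIs but 18 of KLK11, 0 of KLK10 and 0 of KLK6. KLK11 was at 38.3, 31.0 and 7.71 CPM there in control 1, control 2 and LPS, the last on 1 UMI. It was at 0.945, 1.40 and 0.926 CPM in the other Caco-2 clusters, leaving out a cluster led by PAGE4 and SPRR1B. In the 2 HT29 secretory clusters together KLK12 also exceeded KLK11, at 578, 371 and 442 CPM against 243, 305 and 226. A UMI of KLK12 was seen in 66.2%, 43.0% and 25.0% of the enteroendocrine-like Caco-2 cells of control 1, control 2 and LPS. Among Caco-2-line cells with a KLK12 UMI, 65.1%, 51.9% and 23.8% also had a UMI of INSM1, a transcription factor of endocrine cells, against 0.511%, 1.10% and 0.455% of the other Caco-2-line cells. PAX4 was in 38.1%, 40.7% and 4.76% of the former, against 0.23%, 0.562% and 0.152% of the latter. Other enteroendocrine markers were rare or absent in the former. CHGA was in 4.76%, 5.56% and 0%, GCG in 1.59%, 1.85% and 0%, and SST and NEUROD1 in none. Among HT29-line cells with a KLK12 UMI, 94.5%, 94.6% and 91.4% had TFF3, a goblet cell peptide, against 32.0%, 33.1% and 35.4% of the others. FCGBP, a mucus protein, was in 52.7%, 59.5% and 41.4% against 2.49%, 2.33% and 2.84%.

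The UMIs were few in the Caco-2 clusters other than the enteroendocrine-like one and a cluster led by PAGE4 and SPRR1B. In the Caco-2-line cells of these other Caco-2 clusters, the level was 0.388% to 1.17% of the HT29 level for KLK6. It was 0.253% to 0.37% for KLK10, 0.279% to 0.471% for KLK11 and 1.28% to 1.49% for KLK12. For 9 HT29-type genes of other loci, such as LCN2, TCN1 and ANXA1, it was 0% to 1.23%. Another gene of that list, TFF1, was higher in Caco-2-line cells and was left out. KLK6, KLK10 and KLK11 in these other Caco-2 clusters thus lay within the range of unrelated HT29 genes and are not read as expression there. The source of these UMIs was not tested. KLK12, with 8 to 18 UMIs per library there, lay just above that range. Caco-2-line cells placed in HT29 clusters were left out of these shares. Over all Caco-2-line cells the level was 2.20% to 3.57% of the HT29 level for KLK6 and 1.71% to 3.27% for KLK10. It was 1.54% to 2.87% for KLK11 and 4.39% to 10.7% for KLK12. For LCN2, TCN1 and ANXA1 it was 1.84% to 2.64%, 1.07% to 1.79% and 1.57% to 2.36%. The same 9 HT29-type genes ran from 0.753% (CST6) to 3.36% (SNCG). KLK10 and KLK11 lay within that range, KLK6 passed it in control 2, and KLK12 lay above it.

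The cluster led by PAGE4 and SPRR1B held 321 cells, of which 5.30% were of the HT29 line, with a median of 6901 UMIs, above that of every other cluster. Its Caco-2-line cells carried all 4 kallikreins at 10.1% to 18.0% of the HT29-line level in control 1, 29.3% to 34.0% in control 2 and 36.2% to 44.3% in LPS. The same 9 HT29-type genes stood at 9.23% to 21.7%, 8.27% to 31.4% and 19.8% to 77.9%. The summed UMIs of these cells thus held unrelated HT29-type genes beside the kallikreins. Whether single cells held both, and the part of mixed droplets, was not tested.

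KLK6, KLK10 and KLK11 tended to be detected in the same HT29-line cells. Of the cells with KLK10, 84.8%, 73.3% and 70.0% also had KLK11, against 56.5%, 51.5% and 44.5% of the cells without KLK10. Deeper cells show more genes, so the odds ratio was pooled within 5 classes of depth, which gave 3.44, 2.06 and 2.24 for KLK10 with KLK11. For KLK6 with KLK10 it was 1.99, 2.17 and 2.01, and for KLK6 with KLK11 1.69, 1.37 and 1.85. All 3 genes were seen together in 107 of 658, 74 of 1017 and 66 of 869 cells, whereas 20.5%, 29.9% and 33.6% of HT29-line cells showed none of the 4.

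KLK12 was found apart from KLK6 and KLK10. It shared 10, 9 and 4 cells with KLK6, where 23, 22 and 15 would be shared if the genes were detected independently, and 4, 2 and 2 cells with KLK10, where 16.6, 14.2 and 12.7 would be. The odds ratios within 5 classes of depth were 0.274, 0.273 and 0.181 with KLK6 and 0.171, 0.112 and 0.133 with KLK10. With KLK11, its direct neighbour, the odds ratio was 2.26 and 2.25 in the controls and 1.18 in LPS. With every cell thinned to 1500 UMIs it was 1.05, 2.26 and 0.785, so the direction for this pair rested on control 2. Only cells of the 4 larger HT29 clusters were then compared, a choice made after seeing the data. These were 618, 934 and 803 cells and included cells of those clusters given the Caco-2 line. The odds ratios of KLK6 with KLK10 were 1.72, 2.03 and 1.95 and those of KLK10 with KLK11 3.46, 2.18 and 2.23. Joint detection of these pairs was thus also present there. Without the LCN15 and PRSS1 cluster as well, KLK6 with KLK10 gave 1.68, 1.89 and 2.12 and KLK10 with KLK11 2.48, 2.25 and 1.54. There KLK11 with KLK12 gave 0.618, 0.828 and 1.13, on 3 to 5 joint cells, and KLK6 with KLK12 gave 0.368, 1.05 and 0.519, on 1 to 3, so neither pair kept 1 direction in all libraries.

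**Figure D4:**
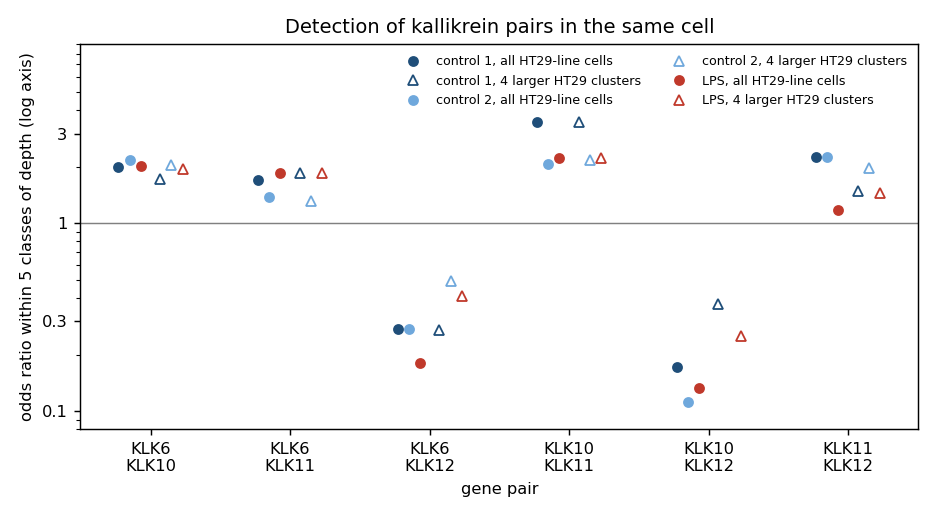
Odds ratio of detecting both genes of a pair in the same cell, pooled within 5 classes of depth (log axis, 1 means independent). Filled circles are all HT29-line cells of each library. Open triangles are all cells of the 4 larger HT29 clusters, those given the Caco-2 line included. The triangle at an odds ratio of 0 (KLK10 with KLK12, control 2) is not drawn. Pairs among KLK6, KLK10 and KLK11 lie above 1, and KLK12 with KLK6 or KLK10 lies below 1. The triangles of these last pairs rest on few joint cells in control 1, control 2 and LPS. KLK6 with KLK12 had 3, 5 and 2, where 4.15, 7.44 and 2.99 would be shared if independent. KLK10 with KLK12 had 2, 0 and 1, where 2.97, 4.85 and 2.68 would be.

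Across HT29-line cells the rank correlations of counts per 10000 UMIs of a cell were weak. The mean Spearman rho over the 3 libraries was 0.25 for KLK10 with KLK11, 0.22 for KLK6 with KLK10 and 0.15 for KLK6 with KLK11. It was -0.13 for KLK12 with both KLK6 and KLK10. Cells of a library differ in depth, and counts this sparse limit rho. Among genes in at least 10% of the cells, those with the highest mean rho were TM4SF4 (0.33), PDZK1IP1, SLPI, B2M and PHGR1 for KLK11, TM4SF4 (0.28), S100A11, C19orf33, SPRR1B and IFI27 for KLK10, and S100A11 (0.25), CYSTM1, ANXA2, PRSS3 and TM4SF4 for KLK6. For KLK12 they were HES6 (0.54), TFF3 (0.44), MDK, CRACR2B and IL13RA1. HES6 belongs to the HES family of transcriptional regulators.

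Over the 15 clusters with at least 20 cells in each library, times the 3 libraries (45 points that share libraries), the profile of KLK6 on the log2(CPM + 10) scale correlated with that of KLK10 at r = 0.95 and with that of KLK11 at r = 0.92. KLK12 correlated with KLK11 at r = 0.36, with KLK6 at r = 0.05 and with KLK10 at r = -0.03. Among the most similar genes outside the family were TMEM54 (r = 0.97), ANXA1, AC005256.1, DNASE2 and TIMP1 for KLK6, PRR5L, MMP7, LRP8 and PDZK1IP1 for KLK10, and CRIP2 (0.99), SH3BGRL3, NDUFA4L2, MLPH and SMIM22 for KLK11. MATN2 (0.94), FFAR2, AES, RCOR2 and TPM1 were the most similar to KLK12.

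The genes that act with kallikreins in protein networks were measured by the same limit of 4-fold between lines in each library. Of all genes tested, 5.87% passed it in HT29-line cells and 4.79% in Caco-2-line cells. Of 16 protease inhibitors with enough UMIs, 4 were higher in HT29-line cells, namely SLPI, PI3 and WFDC2, which carry whey acidic protein domains, and the serpin SERPINB5, and SERPINC1 was higher in Caco-2-line cells. SPINT1 and SPINT2, Kunitz-type inhibitors, stood at 450.3 and 1742 CPM in HT29-line cells and at 140.0 and 475 in Caco-2-line cells, as the mean of the controls. SPINK5, the inhibitor of skin kallikreins, was at 8.18 and 6.29 CPM. SERPINA1, SPINK1 and SERPINF2 were higher in Caco-2-line cells in each library, short of the limit. They stood at 1785, 486 and 27.9 CPM there and at 549, 200 and 10.4 in HT29-line cells. The median log2 ratio of the inhibitors was 1.41, beside 0.05 over all genes tested, with members on both sides.

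Of 13 proteases that can activate zymogens, MMP7 and PRSS2 were higher in HT29-line cells, and hepsin (HPN) and MEP1A were higher in Caco-2-line cells. ST14 (matriptase) and PRSS8 (prostasin) were expressed in both lines, at 126 and 166 CPM in HT29 and 51.0 and 142 CPM in Caco-2. Of the protease-activated receptors, F2RL1 was at 15.2 CPM in HT29 and 35.7 CPM in Caco-2, and neither of the 2 measured passed the limit. Of 16 adhesion and matrix genes, DSG3, DSC2 and LAMA3 were higher in HT29, and FN1 and VTN in Caco-2.

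Of 10 squamous-type genes with enough UMIs, 7 were higher in HT29-line cells by this limit, among them SPRR1B at 190 CPM and KRT17 at 130.2 CPM. None was higher in Caco-2-line cells by it. TGM1 ran the other way in each library, with HT29 over Caco-2 ratios of 0.171, 0.215 and 0.267, and missed the limit in LPS. As the mean of the controls it stood at 0.47 CPM in HT29-line and 3.76 in Caco-2-line cells. KRT4 stood at 0 and 0.857 CPM, and CNFN at 70.2 and 40.6. The shares over all genes were 5.87% and 4.79%. None of the 3 measured neighbours of the locus outside the kallikreins passed the limit in either direction. CTU1, beside KLK14, was at 21.5 CPM in HT29 and 13.6 CPM in Caco-2. These lists were chosen with earlier results known and describe the surroundings of the 4 genes only.

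The LPS library was compared with the controls to ask whether a bacterial stimulus changed the kallikreins. None of the 4 passed the threshold. Summed over all cells, KLK6 was at 23.1, 21.8 and 19.8 CPM in control 1, control 2 and LPS, KLK10 at 14.7, 14.9 and 16.7, KLK11 at 49.3, 57.4 and 51.0 and KLK12 at 10.4, 10.1 and 8.01. KLK6 and KLK12 in the LPS library were below both controls, KLK10 was above both and KLK11 lay between them. In these sums a change in the number of HT29-line cells cannot be told apart from a change per cell.

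By the quasi-likelihood test of edgeR, the log2 fold change over all cells was -0.26 (95% interval -0.60 to 0.08) for KLK6, 0.09 (-0.26 to 0.44) for KLK10, -0.14 (-0.46 to 0.17) for KLK11 and -0.44 (-0.85 to -0.02) for KLK12. KLK12 had an unadjusted p of 0.0403 and an adjusted p of 0.944 in edgeR, and the other 3 had adjusted p of 0.944 to 0.967. The test called 9 of 16142 genes, or 0.0558%.

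Within HT29-line cells alone, edgeR gave -0.36 (-0.85 to 0.13) for KLK6, -0.03 (-0.51 to 0.46) for KLK10, -0.27 (-0.74 to 0.20) for KLK11 and -0.26 (-0.78 to 0.25) for KLK12, each with an adjusted p of 1.00. There it called 28 of 12135 genes, or 0.231%. Of the 4 genes, edgeR thus called 0 in both sets, with 1 (KLK12, all cells) and 0 at an unadjusted p under 0.05, a limit that 4.43% of all genes passed over all cells and 2.97% in HT29-line cells. DESeq2 called 0 in both sets, with 0 at an unadjusted p under 0.05. With 1 LPS insert the fit has 1 residual degree of freedom and assumes that this insert varies as the controls do, so the intervals leave room for changes of up to about the size of their bounds. KLK10 in HT29-line cells had no stable sign: it was 0.22 without control 1 and -0.24 without control 2.

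**Figure D5:**
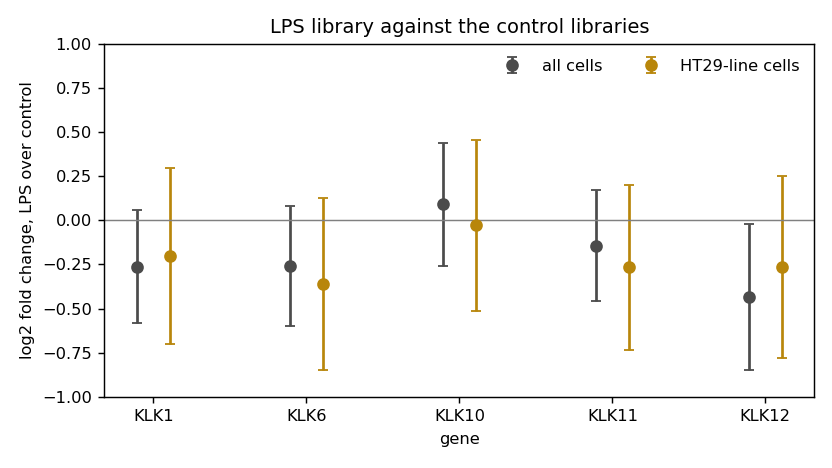
Log2 fold change of LPS over control for KLK1 and the 4 kallikreins from edgeR, over all cells and over HT29-line cells, with 95% intervals. Every interval includes 0 except that of KLK12 over all cells (-0.85 to -0.02), whose adjusted p was 0.944.

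In the LPS library, the lower KLK12 level lay in the Caco-2 line. KLK12 in Caco-2-line cells was at 1.67 CPM (1.11 to 2.41) against 4.18 (3.43 to 5.04) and 4.08 (3.25 to 5.07) in the controls. The enteroendocrine-like Caco-2 cluster held 36 cells there against 65 and 93, and 12 KLK12 UMIs against 80 and 63, or 92.6 CPM (47.8 to 162). Both the number of these cells and the KLK12 level in them were therefore below those of the controls, in a single LPS insert, and the difference within this cluster was not tested.

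Of the genes around the kallikreins, none of 17 protease inhibitors, 14 activating proteases or 17 adhesion and matrix genes passed edgeR over all cells. At an unadjusted p under 0.05 there were 2, 0 and 3 of them, beside 4.43% of all genes. SLPI had a log2 change of -0.44 ± 0.14 (SE) with an adjusted p of 0.944 in edgeR. Within HT29-line cells, TCN1, a vitamin B12-binding protein and HT29-type gene of another locus, was lower by 1.26 on the log2 scale (SE 0.28, edgeR adjusted p = 0.0038). Its level in these cells was 92.5, 36.1 and 27.8 CPM in control 1, control 2 and LPS. The 2 controls thus lay further apart than control 2 and LPS, and the estimate leans on control 1. In the same cells ALB and AFP, Caco-2-type genes, passed edgeR with log2 changes of 1.70 (SE 0.26) and 1.09 (SE 0.27). Their levels in the controls were 14.5 ± 10.0 and 17.8 ± 6.79 CPM (SD, n = 2). The untreated inserts thus differed for these genes too, and there was a single LPS insert. The part of RNA from Caco-2 cells in the HT29-line sums was not tested.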

How the data were processed

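Single-cell RNA was measured with the 10x Genomics 3′ assay in 2 control inserts and 1 LPS insert, and the labels put each library in its group. The count matrices, as the authors deposited them, hold UMIs per gene and barcode made with Cell Ranger (3.1.0 in the headers, 6.1.2 in the study's resource table) on GRCh38, with no normalization. They hold 5811, 6495 and 6838 barcodes with 33893707, 27934953 and 24185467 UMIs. The members and gene lists were chosen with earlier results of these data known.

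Cells passed the study's minimums (for the LPS library, which has none stated, those of control 2: 1500 UMIs and 700 genes) and a limit of 20% mitochondrial UMIs. The automatic doublet threshold marked 0, 0 and 1 cells, so the 6% with the highest scores in each library (scanpy 1.11.5) were removed. Each cell's line came from the difference of mean scaled values of 395 HT29 and 756 Caco-2 genes, cut by Otsu's threshold per library. SCTransform (sctransform 0.4.2) and anchor integration (Seurat 5.3.0) used 2995 features after 5 kallikreins were left out. Leiden clusters (leidenalg 0.10.2, 50 components, 15 neighbours) were made at a resolution of 0.5, then at 0.3 within HT29 and 0.4 within secretory cells, and were given a type only where at least 3 of its markers were raised.

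UMIs were summed per library and group of cells. Clusters, levels and joint detection were described without a test, with a floor of 3 counts for ratios. LPS against control was tested with edgeR 4.0.16 (TMM, quasi-likelihood test, Benjamini-Hochberg at 0.05) in R 4.3.3, with DESeq2 1.42.0 as the other tool. Tested on simulated data, edgeR recovered 75.8% of changed genes over all cells (16142 genes) with 1.32% of calls false. In HT29-line cells (12135 genes) it recovered 66.8% with 2.24% false. These shares pool 2 sizes of change. At 4-fold they were 89% over all cells and 90.7% in HT29-line cells, and at 2-fold 62.2% and 43.4%. Recovery of changes below 2-fold, where the LPS estimates of the 4 kallikreins lie, was not tested. The simulated counts had the same spread for every gene, around means pooled over the libraries. Genes with a larger spread between inserts were not simulated, so the shares of false calls do not cover them. Nothing states that the inserts were separate cultures beyond separate wells, so the spread between them may be technical. Genes named beyond the 4 are the other kallikreins, listed genes with the highest levels or past the test, and, per member, the 5 genes most like it over clusters and over HT29-line cells. Some genes that meet this rule, and 1 of the gene lists, are not reported here. Alternatives covered doublets, minimums, the line call, depth, clustering, the test, its filter and scaling, and each control left out.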

Additional observations from a re-analysis of the deposited data

Results flagged for a closer look

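Barcodes that the comparisons did not use also held the 4 kallikreins above the limit that 3 counts set. In the 3748 barcodes below the cell minimums, KLK6 was at 13.3 CPM, KLK10 at 10.5, KLK11 at 40.3 and KLK12 at 12.5, with a limit of 0.752 CPM. In the 924 barcodes removed for high doublet scores, KLK6 was at 23.9 CPM, KLK10 at 12.8, KLK11 at 58.3 and KLK12 at 8.47, with a limit of 0.41 CPM. Both sets lay between the levels of Caco-2-line and HT29-line cells, and their make-up by line was not tested.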

How the results depend on the processing

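No paired analysis was possible because the control and LPS libraries share only replicate number 1. The ratio of HT29-line over Caco-2-line levels kept its direction for all 4 kallikreins under every alternative run. On the log2 scale it moved by more than the SD of the controls with the line of the cell's cluster for KLK6 (5.85) and KLK10 (6.27), and with thinned cells for KLK10 (6.48) and KLK12 (3.01). Without either control it ranged from 4.81 to 5.46 for KLK6, 4.93 to 5.87 for KLK10, 5.12 to 6.02 for KLK11 and 3.22 to 3.58 for KLK12. The share of KLK12 UMIs in secretory clusters was 80.2% as the mean of the controls, and 81.3% and 82.2% with Leiden at 0.8 and with log normalization. That of KLK6 was 1.29%, and 1.05% with log normalization. Clusters were counted as secretory in these shares with 3 markers above a log2 ratio of 1.5. With the LCN15 and PRSS1 cluster counted as secretory too, chosen after seeing the data, the shares were 28.9% for KLK6, 12.2% for KLK10, 21.3% for KLK11 and 86.2% for KLK12. For joint detection, the mean log2 odds ratio of the controls was 1.06 for KLK6 with KLK10, and 0.84 with thinned cells, 1.25 with no doublets removed, 0.91 in the 4 larger HT29 clusters and 0.83 in the 3 of them without the LCN15 and PRSS1 cluster. For KLK6 with KLK12 it was -1.87, and -2.31 with thinned cells, -1.98 with no doublets removed, -1.93 without cells near the cut, -1.45 in the 4 clusters and -0.69 in the 3. For KLK11 with KLK12 it was 1.17, and 0.62 with thinned cells, 1.12 with no doublets removed, 0.78 in the 4 clusters and -0.48 in the 3, which reversed it. In thinned cells it rested on control 2, with odds ratios of 1.05, 2.26 and 0.785 in control 1, control 2 and LPS. KLK10 with KLK12 gave no value in thinned cells or in these clusters, since control 2 had 0 joint cells there. As a mean of the controls, the other pairs kept their direction under the alternatives that gave a value. Without either control the log2 odds ratio ranged from 0.99 to 1.12, 0.46 to 0.76 and 1.05 to 1.78 for KLK6 with KLK10, KLK6 with KLK11 and KLK10 with KLK11, and from -1.87 to -1.87, -3.16 to -2.55 and 1.17 to 1.18 for KLK12 with KLK6, KLK10 and KLK11. The LPS test called 9 genes over all cells, and 18 with size factors of DESeq2 and 49 without a filter on low counts. In HT29-line cells it called 28 genes, and 3 with DESeq2. The cause was not tested. KLK10 in HT29-line cells changed sign without control 1 (0.22, against -0.24 without control 2). No alternative with a test called any of the 4 kallikreins. Depth limits KLK12 most: 720 UMIs were counted over all kept cells, and 12 in the enteroendocrine-like Caco-2 cells of the LPS library.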

Other observations

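Levels in HT29-line cells were also read by cell cycle phase. KLK10 was at 106, 76.2 and 91.8 CPM in cells called G1 in control 1, control 2 and LPS, and at 50.5, 43.6 and 55.8 CPM in cells called S, so it was lower in S in each of the 3 libraries. KLK6 was at 154, 104 and 107 CPM in G1 and at 90.2, 80.0 and 66.3 in S. KLK11 and KLK12 were also lower in S in each library. KLK11 was at 355, 292 and 276 CPM in G1 and at 166, 280 and 195 in S. KLK12 was at 52.8, 37.6 and 42.3 CPM in G1 and at 25.2, 36.3 and 6.98 in S, on 7, 10 and 2 UMIs. For KLK10 and KLK6 the counting intervals of G1 and S overlapped in control 2 and LPS. Those of KLK11 overlapped in control 2, and those of KLK12 in control 1 and control 2. In cells called G2 or M, KLK10 was at 44.2, 58.5 and 61.3 CPM, also below G1, so its lower level was not particular to S. KLK6 was at 136, 151 and 89.9 CPM there. The S class held 34, 80 and 75 cells, phase calls rest on sparse counts, and the difference was not tested.

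KLK1 was also present in goblet-like HT29 cells, at 176, 234 and 174 CPM, above the 25.7 to 66.0 CPM of the 4 larger HT29 clusters. In the enteroendocrine-like Caco-2 cluster, where KLK12 was high, KLK1 was at 183, 136 and 231 CPM, below the enterocyte-like cluster in each library.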
